A study of Mus musculus with 9 samples.

Results

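B16F10 cells, a pigmented mouse melanoma line, were compared in 3 forms. The control line carried a non-targeting control, the second line a knockdown of Sirpa and the third an overexpression of Sirpa. The contrast described here set the average of the knockdown and overexpression lines, each weighted 0.5, against the control line. It used all 9 libraries of the series, 3 per line, and asked which genes had moved away from control in both perturbed lines whatever the direction of Sirpa. All 3 lines grew in complete medium, with no other treatment in the labels. The labels give 1 line per condition and do not say whether a line is a clone or a pool, or which vector it carries. The p-values are therefore set by how far repeats of 1 line differ, and say nothing of lines made independently. A change common to both perturbed lines and a peculiarity of the single control line cannot be told apart in this design.

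Sirpa encodes signal regulatory protein alpha, a membrane receptor with inhibitory motifs in its cytoplasmic tail that recruit the tyrosine phosphatases SHP-1 and SHP-2. It is best known from macrophages, where contact with CD47 on another cell restrains engulfment, and it is also found on neurons and melanocytic cells. The contrast of both lines with control collects the changes that a line with less and a line with more of the receptor have in common.

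Depth, in units of 1000000 estimated counts, was 16.4 to 22.38 per library. It did not separate the perturbed lines from control (exact permutation test of 6 against 3 libraries, two-sided p = 0.5). Melanocyte genes were expressed in every library, among them Pmel at 2946 to 4065 TPM (a level per transcript length), Mlana at 1894 to 2076 TPM and Sox10 at 248 to 296 TPM. Of the marker genes of other cell types, 6 of 17 myeloid genes, Ptprc among them, 11 of 16 T and NK cell genes and 9 of 12 epithelial genes had 0 counts in all 9 libraries. Of the 13 fibroblast markers 6 passed the filter on low counts. Col1a1 had the highest mean level over the 9 libraries, but with knockdown it was at 4.33 to 5.71 CPM, a small part of the sum. The sum over all fibroblast markers was 93.3 to 100.6 CPM (counts per 1000000) in controls, 63.7 to 72.3 CPM with knockdown and 106 to 117 CPM with overexpression. The endothelial markers, nearly all of it Eng, summed to 264 to 283, 347 to 382 and 294 to 313 CPM.

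Sirpa itself (ENSMUSG00000037902) followed the labels in every library. Its level was 292, 289 and 303 CPM in the controls. With knockdown it was 118, 112 and 115 CPM, and with overexpression 895, 898 and 914 CPM. The opposite changes, −1.36 and 1.61 on the log2 scale, left a mean change of 0.13 ± 0.03 (SE; edgeR quasi-likelihood test, Benjamini-Hochberg adjusted p = 0.00636). That call was lost with the 6 perturbed libraries as 1 group (adjusted p = 0.484) and with an offset for transcript length (0.0946). Because a small mean can stand for large and opposite changes, many genes are given here with the values of each line. Others are given by the mean alone, and that does not say that the lines changed alike. Of these, Rrm2, Mthfd2, Hmox1, Sdha, Pde5a, Rab38, Gpnmb and Fyn moved the same way in both lines but were called between them.

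Both perturbed lines together differed from control across a large share of the transcriptome. Of 13064 genes tested, 4305 (33.0%) were called, that is, had an adjusted p under 0.05. Of these, 2205 were higher (16.9% of genes tested) and 2100 lower (16.1%). Most changes were small, with a median absolute change of 0.33 (log2) among called genes, and 418 reached 2-fold, 198 higher and 220 lower. The median change over all genes tested was −0.01.

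A called mean can come from both lines or from 1 of them. In 2848 called genes (21.8% of genes tested, 1511 higher and 1337 lower) all 6 perturbed libraries lay beyond all 3 control libraries. Both lines are read against the same 3 control libraries here. In the remaining 1457 called genes the 6 perturbed libraries were not all on 1 side of the 3 controls. Libraries overlapped in some, and in others, such as Sirpa, the lines lay on opposite sides of the controls. Of the 1457, 773 were called between overexpression and knockdown, a comparison that does not use the controls. Over all genes tested, overexpression and knockdown were called apart in 2887 (22.1%).

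The 2848 genes were divided by whether the lines differed from each other. In 2109 of them, 1105 higher and 1004 lower, no difference between the lines was called. The median distance between the lines in this group was 0.09 (log2) against a median change of 0.35. In 739, 406 higher and 333 lower, the lines were called apart, with the knockdown line farther from control in 579 and the overexpression line in 160. A difference that misses the threshold does not show that the lines changed alike, so the 95% interval of the difference was also used. It lay within the size of the mean change in 1882 called genes, 1086 higher and 796 lower, or 43.7% of those called. Of these, 1488 were among the 2109, 267 among the 739 called apart, and 127 among the 1457 not all on 1 side of the controls. The rule bounds the difference by the mean change and does not show equal changes. Sec16b met it with changes of 3.36 with knockdown and 1.60 with overexpression. The count of called genes fell from 4305 to 2404 when transcript length was used as an offset and to 2429 when the 6 perturbed libraries were fitted as 1 group, where the distance between the lines counts as spread.

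**Figure D1:**
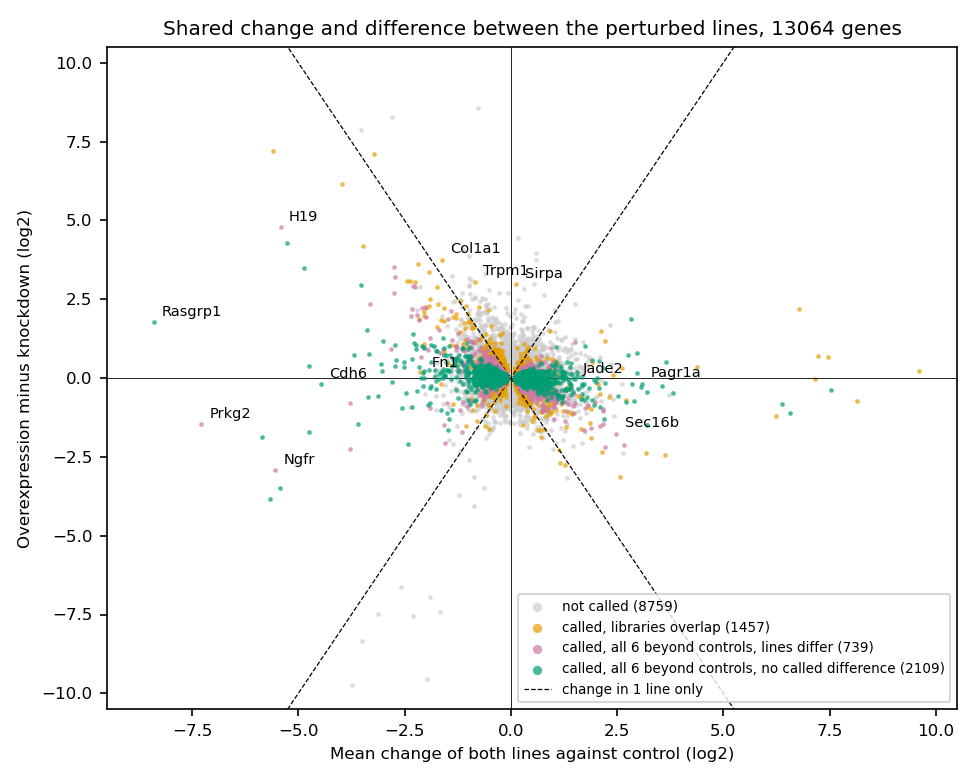
Mean change of both perturbed lines against control (x, log2) and the difference between overexpression and knockdown (y, log2) for the 13064 genes tested, 1 point per gene, coloured by class. The class labelled as overlapping also holds genes whose lines lay on opposite sides of the controls. Points near the horizontal line changed by a like amount in both lines, points on a dashed line changed in 1 line only, and the points between the dashed lines and the vertical axis, such as Sirpa, Trpm1 and Col1a1, moved in opposite directions.

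Among genes that reached 5 CPM in a line, predicted genes and pseudogenes aside, the largest evenly shared falls, those with no called difference between the lines, began with Rasgrp1 and Cdh6. Rasgrp1 (ENSMUSG00000027347), an exchange factor that loads Ras with GTP in response to diacylglycerol, stood at 57.2, 61.7 and 62.6 CPM in the controls. With knockdown the libraries held 0.18, 0.0595 and 0 CPM, and with overexpression 0.377, 0.118 and 0.459 CPM. That is 3220 counts in the control line against 5 and 18. The mean change was −8.40 ± 0.19 (adjusted p = 1.38e-14), and at so few counts this SE understates the uncertainty. The lines were 1.77 apart (95% interval 0.43 to 3.11; adjusted p = 0.0565), so the fall is shared in kind and its size in each line is not well fixed.

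Cdh6, a classical cadherin of neural crest and kidney, fell from 8.39, 10.4 and 9.81 CPM to 0.298 to 0.547 CPM with knockdown and 0.287 to 0.471 CPM with overexpression (−4.48 ± 0.26). Its difference between the lines was −0.18, with an interval from −1.04 to 0.67. Matn3, a matrilin of cartilage matrix, fell from 20.4 to 25.6 CPM in the controls to 2.67 to 2.80 and 1.0 to 2.40 CPM (−3.35 ± 0.17). Its lines were −0.61 apart (−1.13 to −0.09), an interval that leaves out 0. Col2a1, the collagen of cartilage, fell by 3.68 ± 0.47 on the log2 scale, with 1 knockdown library at 0. The control libraries lay far above all 6 others for each of these genes.

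The other 4 large shared falls were between −2.23 and −2.09. They were in Car12, a membrane carbonic anhydrase (−2.23 ± 0.32), Pcdh1, a protocadherin (−2.20 ± 0.15), Sorbs2, an adaptor of the actin cytoskeleton (−2.16 ± 0.17), and Eml1, a microtubule-binding protein (−2.09 ± 0.34). Though no difference was called, the interval of the difference left out 0 for Car12 (0.04 to 1.80) and Eml1 (0.08 to 1.95). Both fell farther with knockdown, by −2.69 against −1.77 for Car12 and −2.60 against −1.58 for Eml1. Sorbs2 went from 21.8 to 25.5 CPM in controls to 4.01 to 5.47 and 3.82 to 8.08 CPM. Among well-expressed genes Fn1, which encodes fibronectin, went from 495, 480 and 485 CPM to 113, 109 and 111 CPM in the knockdown line. It was at 122, 112 and 135 CPM in the overexpression line, a mean change of −2.06 ± 0.04 (adjusted p = 1.2e-14), and the lines were 0.16 apart (0.04 to 0.27; adjusted p = 0.0533).

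**Figure D2:**
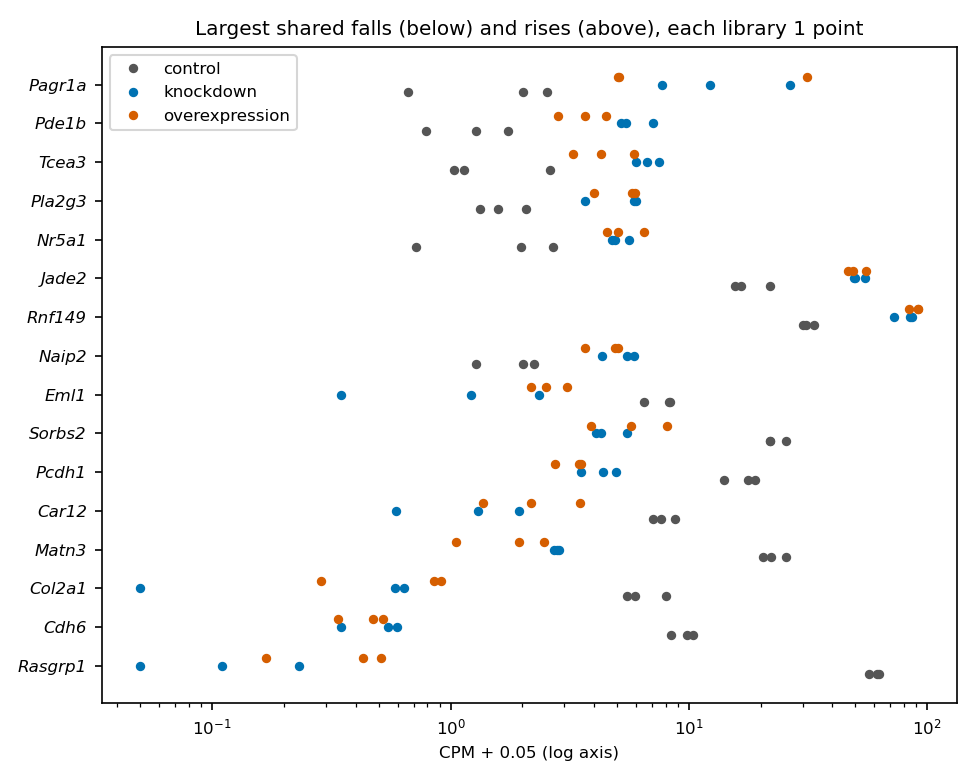
CPM + 0.05 on a log axis in each of the 9 libraries for the 8 largest rises and 8 largest falls among genes reaching 5 CPM in a line with all 6 perturbed libraries beyond all 3 controls and no called difference between the lines. Knockdown and overexpression points lie on the same side of the control points in every gene, from Rasgrp1 at the bottom to Pagr1a at the top.

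The largest evenly shared rises were mostly in genes of low level, and 2 were in well-expressed ones. Jade2, a subunit of a histone acetyltransferase complex that also has ubiquitin ligase activity, rose from 16.5, 21.8 and 15.6 CPM in controls to 49.6, 54.6 and 49.5 CPM in the knockdown line. It was at 48.7, 46.4 and 55.5 CPM in the overexpression line, a mean change of 1.5 ± 0.10 (2.83-fold; adjusted p = 1.47e-08). The lines were −0.03 apart, with an interval from −0.25 to 0.19, narrow beside the change. Rnf149, a RING-type ubiquitin ligase, rose from 30.9, 33.3 and 30.0 CPM to 72.2 to 85.9 and 83.6 to 91.5 CPM (1.43 ± 0.07; 2.70-fold). Its lines were 0.13 apart (−0.02 to 0.29).

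Of the low-level rises, Pla2g3, a secreted phospholipase A2, went from 1.27 to 2.02 CPM in the controls to 3.61 to 5.96 and 3.95 to 5.88 CPM (1.67 ± 0.27). Nr5a1, the nuclear receptor of adrenal and gonadal steroid cells, changed by 1.56 ± 0.32 and Pde1b, a calcium-dependent phosphodiesterase, by 1.91 ± 0.30. For Pde1b the changes were 2.26 with knockdown and 1.56 with overexpression, and the interval of the difference left out 0 (−1.34 to −0.06). Tcea3, a transcription elongation factor, changed by 1.78 ± 0.32 and Naip2, an inflammasome sensor, by 1.42 ± 0.26. For all 5 the highest control library was at most 2.63 CPM. Salmon divides fragments among similar transcripts, so a gene's shared sequence, the share of its 31-base words that also occur in other genes, bears on its value. It was 32.8% for Naip2 and 23.9% for Rnf149. Pagr1a had the largest value (3.09 ± 0.64), but 93.2% of its words occur in other genes and its libraries ranged from 4.99 to 31.2 CPM within the overexpression line alone, so its value is uncertain.

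Another group moved the same way in both lines but not by the same amount. Prkg2 (ENSMUSG00000029334), a membrane-bound kinase activated by cyclic GMP, stood at 150, 153 and 151 CPM in controls. The knockdown libraries held 2.34, 0.774 and 1.46 CPM, those of overexpression 0.613, 0.530 and 0.573 CPM (−7.29 ± 0.13; adjusted p = 1.12e-15). The difference between overexpression and knockdown was −1.46 (−2.16 to −0.76). Ngfr, the low-affinity neurotrophin receptor of neural crest cells, fell from 9.40 to 11.0 CPM to 0.357 to 0.812 and 0 to 0.141 CPM (−5.54 ± 0.34). Tagln2, an actin-binding protein of the transgelin family, fell from 19.5 to 20.3 CPM to 1.55 to 2.49 and 0.802 to 1.43 CPM (−3.79 ± 0.18). H19, an imprinted non-coding RNA, fell from 28.6 to 30.5 CPM to 0 to 0.225 CPM with knockdown and 2.47 to 4.62 CPM with overexpression, so its loss was far deeper with knockdown (difference 4.78, 3.92 to 5.65).

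The 4 largest uneven rises were all larger in the knockdown line. Sec16b, which organises exit sites of the endoplasmic reticulum, went from 1.03 to 2.30 CPM to 15.8 to 20 CPM with knockdown and 4.24 to 6.18 CPM with overexpression (2.48 ± 0.23). Syn1, a synaptic vesicle protein, changed by 2.70 with knockdown and 1.66 with overexpression. Trim30a, an interferon-inducible regulator, changed by 2.67 and 1.68. Hapln4, a link protein of the perineuronal matrix, changed by 2.37 and 1.60.

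Other genes that the mean ranked high did not have all 6 perturbed libraries on 1 side of the controls, and in several the mean was carried by 1 line. Col1a1, the main chain of type I collagen, was called lower (−1.62 ± 0.07), but it stood at 52.9 to 57.7 CPM in controls, 4.33 to 5.71 CPM with knockdown and 63.2 to 70.2 CPM with overexpression. Kit, the stem cell factor receptor of melanocytes, changed by −3.17 with knockdown and −0.29 with overexpression. Hspb8, a small heat shock protein, changed by −2.70 and −0.47. None of these 3 was called with the perturbed libraries as 1 group (adjusted p = 0.614, 0.301 and 0.131). Among rises with overlapping libraries, Cercam (2.45 and 0.83) and Hspb1, another small heat shock protein (2.0 and 0.89), were called between the lines. Dmd, which encodes dystrophin, was not, and changed by 1.88 and 1.30. Hspb1 and Dmd were called higher in each line against control. Of the sequence words of Hspb1, 55.4% occur in other genes, so its value is uncertain. Cercam was also not called with the perturbed libraries as 1 group (adjusted p = 0.0505) and Dmd not with the length offset (0.0649).

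Genes were then read in 26 pathway lists, each set beside the share of all genes called, 16.9% higher and 16.1% lower, and the median change of all genes of −0.01. No list was tested as a set. Several lists lean on chromosomes 3 and 6, whose genes as a whole stood higher in both perturbed lines, as the plot by chromosome shows, so the median is also given without genes of these chromosomes for most lists that it moved. Over all genes tested it was then −0.02.

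**Figure D3:**
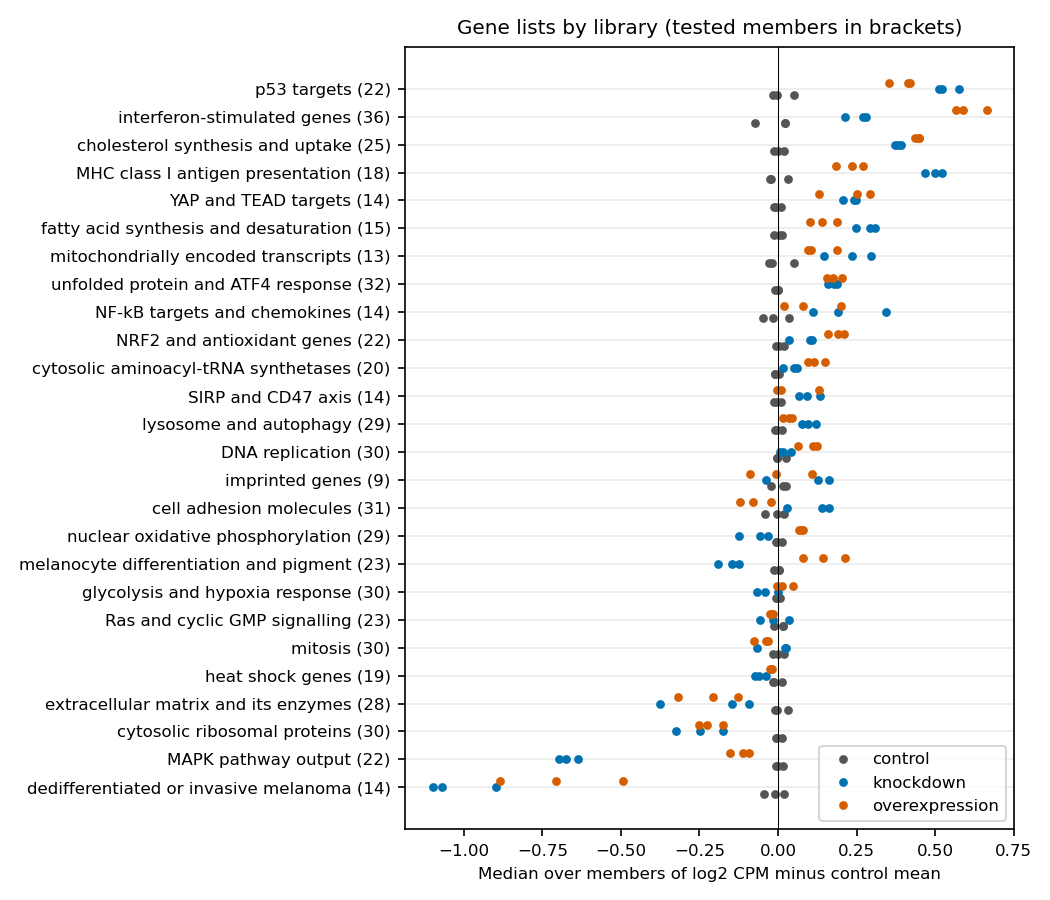
Median over the tested members of each list of log2 CPM minus the control mean, 1 point per library, ordered by the mean of the 6 perturbed libraries. The knockdown and overexpression points lie together above the controls for cholesterol synthesis and below them for ribosomal proteins, and apart from each other for MAPK output and MHC class I presentation.

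Cholesterol synthesis and uptake was the list with the largest share of members called in 1 direction. The pathway builds sterols from acetyl-CoA through mevalonate and squalene, and its genes are switched on together by the transcription factor SREBP2 when membrane sterol is low. Of its 25 genes, all tested, 22 were higher and 0 lower, and in 19 all 6 perturbed libraries exceeded all 3 controls. The list's median change was 0.43, with 0.38 for knockdown and 0.46 for overexpression. Without chromosomes 3 and 6 it was 0.35 over 23 genes. Per library, the median lay between −0.01 and 0.02 in the controls and between 0.37 and 0.45 in the perturbed libraries.

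Hmgcs1, which makes HMG-CoA, was at 190, 195 and 202 CPM in controls, at 356, 334 and 327 CPM with knockdown and at 292, 317 and 301 CPM with overexpression (0.71 ± 0.04; 1.64-fold; adjusted p = 2.14e-09). Acat2, which condenses acetyl-CoA, rose by 0.51 ± 0.04, with no called difference between the lines (0.05, −0.04 to 0.14). It shares 43.7% of its sequence words with other genes, which leaves its value uncertain. Fdps, which makes farnesyl diphosphate and lies on chromosome 3, rose by 0.46 ± 0.03, and 27.9% of its sequence words are shared. Members not called included Insig1 (0.08), which holds SREBP2 in the endoplasmic reticulum, and Tm7sf2 (0.25), a late reductase. Insig1 moved apart, by −0.10 with knockdown and 0.27 with overexpression, and was called between the lines.

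The promoter of Hmgcs1 is shown because it was the only one of the matched members to hold the sterol regulatory element core TCACNCCAC, searched on both strands. RefSeq windows of GRCm38.p6, a build older than the authors' mm39, ran from 250 bases before to 50 after the start site. Of 20 windows of 17 matched members 1 (5.0%) held the core, against 1.24% of all 32851 windows. The stretch below lies upstream of the start at chr13:119690174-119690262 on the plus strand. The capitals mark the core, which begins 137 bases before the start.
Hmgcs1: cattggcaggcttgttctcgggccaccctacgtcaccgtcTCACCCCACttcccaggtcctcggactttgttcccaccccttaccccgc

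Fatty acid synthesis moved less. Of 15 tested genes 9 were higher and 0 lower, with a median of 0.24, 0.28 with knockdown and 0.11 with overexpression. Scd1, the stearoyl-CoA desaturase, went from 316 to 326 CPM to 511 to 525 CPM with knockdown and 408 to 423 CPM with overexpression (0.53 ± 0.03), a called difference between the lines of −0.32. Me1, malic enzyme, which supplies NADPH, rose by 0.53 ± 0.05 and Acly, ATP citrate lyase, by 0.31 ± 0.03, neither with a called difference between the lines. Of the sequence words of Me1, 36.9% are shared with other genes. Fasn, fatty acid synthase, rose by 0.25 ± 0.03 with changes of 0.27 and 0.23.

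Genes of the unfolded protein response and of ATF4, the transcription factor of amino acid shortage and endoplasmic reticulum stress, were called higher in 20 of 32 and lower in 4. All 6 perturbed libraries exceeded the controls in 16. The median was small, 0.17, and 0.13 without the 5 genes on chromosomes 3 and 6. It was 0.19 with knockdown and 0.17 with overexpression, but the members divided between the lines. Of the 32, 19 were called between the lines, 11 higher with overexpression and 8 with knockdown. Herpud1, a factor of endoplasmic reticulum-associated degradation, was at 109, 105 and 109 CPM in controls. It was at 178, 178 and 186 CPM with knockdown and higher still, at 223, 237 and 229 CPM, with overexpression (0.92 ± 0.04; difference 0.34, 0.25 to 0.43). Slc7a11, the cystine importer, lies on chromosome 3 and went from 95.9, 107 and 101 CPM to 193 to 209 and 178 to 186 CPM (0.92 ± 0.04; 1.89-fold). Pdia4, a disulfide isomerase, and Mthfd2, a mitochondrial folate enzyme, both on chromosome 6, rose by 0.45 ± 0.03 and 0.45 ± 0.04. The 4 with a lower mean were Shmt2, Chac1, Xbp1 and Manf, at −0.27 to −0.13, and none had all 6 perturbed libraries below the controls. Shmt2 changed by −0.71 with knockdown and 0.18 with overexpression, and Chac1 by −0.44 and −0.04.

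The ATF4 response element core TGATGNAA, searched on both strands, occurred in 6 of 31 windows of 29 matched members (19.4%), against 3.97% of all windows. The short tail of the endoplasmic reticulum stress element, CCACG, occurred in 23 of the 31 (74.2%) against 32.8%. The members with the ATF4 core were Asns, Chac1, Herpud1, Slc7a11, Trib3 and Vldlr. Upstream stretches of Herpud1 (chr8:94386277-94386364, plus strand) and Slc7a11 (chr3:50443614-50443719, minus strand) are shown because these genes had the largest rises of the list. The capitals mark the core, which begins 112 bases before the start in Herpud1 and occurs 2 times, first 66 bases before the start, in Slc7a11.
Herpud1: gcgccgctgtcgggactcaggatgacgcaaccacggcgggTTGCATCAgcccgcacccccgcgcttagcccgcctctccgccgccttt
Slc7a11: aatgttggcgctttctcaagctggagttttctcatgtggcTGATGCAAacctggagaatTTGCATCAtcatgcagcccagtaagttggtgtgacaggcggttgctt

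The antioxidant genes driven by NRF2 were called higher in 12 of 22 and lower in 4, with a median of 0.13, or 0.11 without chromosomes 3 and 6. Gclm, the modifier subunit of the enzyme that starts glutathione synthesis, also lies on chromosome 3 and went from 78.6 to 79.8 CPM to 139 to 155 and 137 to 149 CPM (0.86 ± 0.05). Its lines were −0.02 apart (−0.13 to 0.09). Srxn1, sulfiredoxin, rose by 0.40 ± 0.05 and Hmox1, heme oxygenase 1, by 0.43 ± 0.04. The 4 lower were Gpx1, G6pdx, Cat and Ftl1, at −0.25 to −0.11.

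Targets of p53, the transcription factor of DNA damage and growth arrest, were called higher in 16 of 22 and lower in 1. All 6 perturbed libraries exceeded the controls in 14. The median was 0.49, with 0.56 for knockdown and 0.41 for overexpression, and it was 0.49 without chromosomes 3 and 6 as well. Cdkn1a, the cyclin-dependent kinase inhibitor p21, was at 238, 245 and 238 CPM in controls. It was at 384, 370 and 368 CPM with knockdown and at 340, 324 and 323 CPM with overexpression (0.55 ± 0.03). Mdm2, the ubiquitin ligase that degrades p53, went from 134 to 137 CPM to 225 to 245 and 179 to 190 CPM (0.61 ± 0.04). Trp53inp1, a p53-induced stress protein, changed by 1.34 with knockdown and 0.40 with overexpression.

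Ccng1, cyclin G1, rose by 0.60 ± 0.04 with no called difference between the lines (−0.10, −0.20 to 0.00). The lower member was Ccng2 (−0.47 ± 0.12), a relative of Ccng1 that is commonly tied to FOXO factors and to cell cycle exit. Of the 22 genes 7 were called between the lines, 6 of them with the higher level in the knockdown line.

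Interferon-stimulated genes were called higher in 17 of 36 and lower in 0, and 13 had all 6 perturbed libraries above the controls. The list's median was 0.35, but its members divided between the lines. The median change was 0.18 with knockdown and 0.60 with overexpression, and of 15 members called between the lines 12 were higher with overexpression and 3 with knockdown. The 4 members with the smallest p in the mean contrast, given next, all had the larger change with knockdown. Parp12, an antiviral ADP-ribosyltransferase, went from 29.7 to 33.4 CPM to 56.9 to 60.0 and 47.3 to 50.8 CPM (0.76 ± 0.06). Herc6, the mouse ligase of ISG15, rose by 0.72 ± 0.06. Both lie on chromosome 6. Gbp2, a guanylate-binding protein on chromosome 3, went from 5.08 to 7.48 CPM to 15.8 to 18.5 and 11.2 to 11.4 CPM (1.2 ± 0.14). Trim30a is given above. Without chromosomes 3 and 6 the list's median was 0.33 over 30 genes.

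Members that rose in both lines with no called difference were, by inspection of their values, Irf7, Oas1a, Xaf1, Parp14, Ifit3, Herc6, Rsad2 and Ifi35. Irf7, the transcription factor that amplifies the interferon response, was at 0.727 to 1.03 CPM in controls and 1.34 to 2.78 CPM in the perturbed libraries (1.23 ± 0.40; adjusted p = 0.0246). Parp14 was at 6.16 to 7.29 CPM in controls and 10.8 to 16.8 CPM in the perturbed libraries (1.03 ± 0.13). Oas1a, an RNA sensor, shares 68.8% of its sequence words with other genes, and its value of 1.38 is uncertain.

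The core of the interferon-stimulated response element, GAAA, any 2 bases, then GAAA, searched on both strands, occurred in 14 of 34 windows of 27 matched members (41.2%), against 3.44% of all windows. The upstream stretch of Gbp2 (chr3:142620564-142620653, plus strand) is shown because Gbp2 is the member of the list with a match that was named by the rule and has the smallest p among those with the match upstream. The capitals mark the core, here on the minus strand, which begins 59 bases before the start.
Gbp2: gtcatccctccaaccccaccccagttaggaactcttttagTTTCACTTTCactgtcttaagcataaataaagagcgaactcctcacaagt

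MHC class I presentation, which loads peptides onto class I molecules for display to T cells, was called higher in 11 of 18 and lower in 0. The lines differed: the median was 0.53 with knockdown and 0.19 with overexpression, and all 10 members called between the lines were higher with knockdown. H2-D1, a class I heavy chain, was at 73.1 to 76.3 CPM in controls, 98.6 to 111 CPM with knockdown and 88.7 to 94.6 CPM with overexpression (0.38 ± 0.05). Tapbp, tapasin, which bridges class I to the peptide transporter, changed by 0.56 and 0.18. H2-Q4, a non-classical class I gene, changed by 1.17 and 0.62, but 53% of its sequence words occur in other genes. For H2-D1 and Tapbp that share was 26.9% each, and 6 of the 18 members tested were over 25%. Calr, a chaperone of the loading complex, changed by 0.23 and 0.11.

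Genes of the dedifferentiated or invasive melanoma state, in which melanoma cells lose pigment programs and gain mesenchymal ones, were called lower in 10 of 14 and higher in 2. Another 7 of the list's 21 genes were under the filter on low counts. The median was −0.85, and −1.07 without chromosomes 3 and 6. It was −1.03 with knockdown and −0.89 with overexpression. The amounts differed in most members: 12 of the 14 were called between the lines, 8 higher with overexpression and 4 with knockdown. The list includes Fn1 and Ngfr, described above. Axl, a receptor tyrosine kinase, went from 39.2, 40.1 and 44.8 CPM to 9.34 to 10.1 CPM with knockdown and 16.5 to 22.1 CPM with overexpression (−1.60 ± 0.09). Cdh2, N-cadherin, went from 288 to 294 CPM to 228 to 237 and 146 to 155 CPM (−0.64 ± 0.03), farther in the overexpression line. The 2 higher members were Thbs1, thrombospondin 1, at 0.46 with knockdown and 1.42 with overexpression, and Ccn1 (0.17 and 0.49). Both are secreted matricellular proteins. A search for the AP-1 site TGANTCA found it in 1 of 8 windows of 6 matched members, that of Itga3, against 7.81% of all windows.

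Genes of MAPK output, those that ERK signalling induces and that often feed back on it, were called lower in 14 of 22 and higher in 2. The median was −0.36, but −0.67 with knockdown and −0.13 with overexpression. Egr1, an immediate early transcription factor, went from 24.8 to 28.9 CPM to 16 to 16.7 and 13.7 to 14.7 CPM (−0.84 ± 0.08). Fosl2, an AP-1 subunit, went from 25.8 to 28.2 CPM to 12.8 to 15.4 and 14.9 to 18.5 CPM (−0.82 ± 0.09). Neither had a called difference between the lines. The ERK phosphatases Dusp4 and Dusp6 changed mainly with knockdown, Dusp4 by −0.97 and −0.08 and Dusp6 by −0.62 and −0.12, and neither was called with the perturbed libraries as 1 group (adjusted p = 0.169 and 0.089).

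Melanocyte differentiation genes had no common direction. Of 23 tested, 7 were higher and 8 lower, with a median of 0.02, −0.14 with knockdown and 0.20 with overexpression, and 17 of the 18 called between the lines were higher with overexpression. Myo5a, the motor that carries melanosomes, rose in both lines, from 442 to 444 CPM to 684 to 712 and 635 to 663 CPM (0.61 ± 0.03). Rab38, a GTPase of melanosome biogenesis, rose by 0.34 ± 0.03. Gpnmb, a melanosomal glycoprotein on chromosome 6, rose by 0.26 ± 0.02. By inspection, the lineage factors Mitf (−0.28 ± 0.03), Sox10 (−0.25 ± 0.04) and Pax3 (−0.22 ± 0.04) all fell, with all 6 perturbed libraries below the controls. Trpm1, a channel gene of melanocytes, moved apart, by −2.38 and 0.68, and its mean was not called with the perturbed libraries as 1 group (adjusted p = 0.902).

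Extracellular matrix genes were called lower in 14 of 28 and higher in 6, with a median of −0.34, or −0.40 without chromosomes 3 and 6, and 10 of the list's 38 genes were under the filter. Besides Matn3, Col2a1 and Col1a1, Col5a1, a fibril-regulating collagen, went from 113 to 127 CPM to 50.1 to 50.4 and 55.3 to 60.4 CPM (−1.14 ± 0.05). Adam12, a metalloprotease, went from 65.7 to 72 CPM to 2.67 to 4.17 CPM with knockdown and 29.7 to 35.5 CPM with overexpression (−2.73 ± 0.09). Of the 6 fibroblast markers tested 3 were called higher, Col1a2 among them (0.69 ± 0.19), and 1, Col1a1, lower. The median of these markers was 0.09, but −0.23 over the 3 that do not lie on chromosomes 3 and 6. The part of other cell types in these values was not tested.

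Adhesion molecules split, with 12 of 31 higher and 11 lower. The median was 0.13 with knockdown and −0.06 with overexpression. Of 17 members called between the lines, 15 were higher with knockdown and 2 with overexpression. Itga3, a laminin-binding integrin, went from 13.3 to 17.0 CPM to 2.19 to 3.52 and 3.91 to 4.81 CPM (−2.12 ± 0.17), and Cdh6 and Cdh2 fell as given above. Cd81, a tetraspanin, rose by 0.49 with knockdown and 0.12 with overexpression. In the list of Ras and cyclic GMP signalling, which holds Rasgrp1 and Prkg2, 6 of 23 were higher and 4 lower. Rasgrp3, a relative of Rasgrp1, rose by 0.31 ± 0.04, from 157 to 160 CPM to 176 to 184 and 214 to 215 CPM, but was not called with the length offset (adjusted p = 0.0856). Pde5a, a phosphodiesterase that degrades cyclic GMP, lies on chromosome 3 and rose by 0.75 ± 0.07. With the length offset its value was 0.32 (adjusted p = 0.336).

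Cytosolic ribosomal protein genes fell together by a small amount. Of 30 tested, 26 were lower and 0 higher, and in 22 all 6 perturbed libraries lay under the controls. The median was −0.22, −0.24 with knockdown and −0.22 with overexpression, and 18 of the 22 had no called difference between the lines. Rps3 changed by −0.27 ± 0.03, with −0.28 and −0.27 in the lines. Rpl7 changed by −0.39 ± 0.03, with −0.40 and −0.38, and 25.8% of its sequence words are shared. These genes have many processed copies, and 20 of the 30 share over 25% of their sequence words with other genes, so single members are uncertain.

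As a share of all counts, 82 ribosomal protein genes made up 5.11% ± 0.037 in controls, 4.34% ± 0.17 with knockdown and 4.34% ± 0.11 with overexpression (SD, n = 3 each; exact permutation test of 6 against 3 libraries, two-sided p = 0.0119, adjusted over 6 shares 0.0357). This is the smallest p that 84 arrangements allow. The 37 genes of the mitochondrial genome made up 2.16% ± 0.020, 2.49% ± 0.11 and 2.42% ± 0.079 (the same exact p and adjusted p). Of the 13 mitochondrial messenger RNAs 6 were called higher and 0 lower, with a median of 0.11. They include mt-Nd5 (0.28 ± 0.04) and mt-Nd6 (0.37 ± 0.06), subunits of complex I. mt-Co1, of complex IV, changed by 0.38 ± 0.04, and 63.9% of its sequence words also occur in other genes. Nuclear genes of oxidative phosphorylation showed no common direction in the mean, with 6 of 29 higher and 7 lower and a median of 0.01, or −0.06 without chromosomes 3 and 6. By line the median was −0.06 with knockdown and 0.08 with overexpression. Of the 29, 15 were called between the lines, 12 higher with overexpression and 3 with knockdown. Sdha, the catalytic subunit of complex II, rose by 0.38 ± 0.05, and Sdhc, a membrane anchor of the same complex, fell by 0.24 ± 0.05 on the log2 scale.

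Lists of growth were near the background. Of 30 DNA replication genes 7 were higher and 2 lower (median 0.07), and of 30 mitosis genes 4 were higher and 6 lower (median −0.02). Mcm2, a subunit of the replicative helicase on chromosome 6, stood out among them at 0.64 ± 0.03, from 356 to 371 CPM to 540 to 559 and 571 to 595 CPM. Rrm2, a subunit of ribonucleotide reductase, rose by 0.33 ± 0.03 and Prim1, of DNA primase, by 0.46 ± 0.06. Mki67, the proliferation antigen, changed by 0.39 with knockdown and 0.01 with overexpression, and was not called with the perturbed libraries as 1 group (adjusted p = 0.181).

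Glycolysis and hypoxia genes were 7 of 30 higher and 6 lower (median 0.02, or −0.04 without chromosomes 3 and 6). Ero1l, an oxidase of the endoplasmic reticulum, changed by 0.88 and 0.40. The glycolytic enzyme gene Pfkl fell by 0.38 ± 0.05 on the log2 scale. Pdk1, which restrains entry of pyruvate into mitochondria, fell by 0.51 ± 0.06 on that scale but by 0.32 with the length offset (adjusted p = 0.193). Lysosome and autophagy genes were 12 of 29 higher and 6 lower (median 0.09). Ctsb, cathepsin B, was the clearest of them, at 254, 265 and 259 CPM in controls, 442 to 468 CPM with knockdown and 440 to 454 CPM with overexpression (0.79 ± 0.03; 1.73-fold). Its lines were −0.03 apart (−0.11 to 0.05). Gabarapl1, an autophagosome protein on chromosome 6, rose by 0.63 ± 0.05, and 25.2% of its sequence words are shared.

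Among the remaining lists, targets of YAP and TEAD were 8 of 14 higher and 3 lower (median 0.26, or 0.23 without chromosomes 3 and 6). Crim1, a membrane protein that binds bone morphogenetic proteins, changed by 1.30 and 0.71, and Tgfb2, a growth factor, by −0.70 and −0.95. Aminoacyl-tRNA synthetases were 9 of 20 higher and 2 lower (median 0.08, or 0.05 without chromosomes 3 and 6). Heat shock genes were 3 of 19 higher and 4 lower (−0.05 and −0.06), and NF-kB targets 3 of 14 higher and 1 lower (0.15 and 0.10). Of the heat shock genes Hspa8, a constitutive chaperone, fell by 0.22 ± 0.03 on the log2 scale with −0.21 and −0.23 in the lines, and 44.8% of its sequence words are shared. Of 9 imprinted genes tested, 3 were higher and 2 lower (0.06 and 0.02). Peg10, a retrotransposon-derived gene, went from 315 to 326 CPM to 97.9 to 120 and 195 to 209 CPM (−1.12 ± 0.05). This was a fall on chromosome 6, against the direction of most genes there.

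In the list of Sirpa and its partners 5 of 14 were higher, Sirpa included, and 2 lower. Ptpn6, which encodes SHP-1, the phosphatase that the receptor recruits, rose from 12.4 to 14.2 CPM to 18 to 22 and 17.4 to 22.1 CPM (0.61 ± 0.11), with −0.02 between the lines (−0.27 to 0.23). It lies on chromosome 6. Fyn and Skap2, a Src-family kinase and a cytosolic adaptor, fell by 0.43 ± 0.05 and 0.30 ± 0.05 on the log2 scale. Cd47, the ligand, changed by 0.09 and was not called.

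The shared change also had a chromosomal pattern. On chromosome 3 the median change of 666 tested genes was 0.20, and 251 were called higher and 50 lower. On chromosome 6 the median of 674 genes was 0.15, with 236 higher and 43 lower. On the other 18 chromosomes listed, the medians ran from −0.08 on chromosome 7 to 0.07 on chromosome 13. Both lines showed it, with 0.21 for knockdown and 0.17 for overexpression on chromosome 3 and 0.15 and 0.15 on chromosome 6. Per library, the median of chromosome 3 was −0.01 to 0.01 in the controls and 0.15 to 0.22 in the perturbed libraries.

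**Figure D4:**
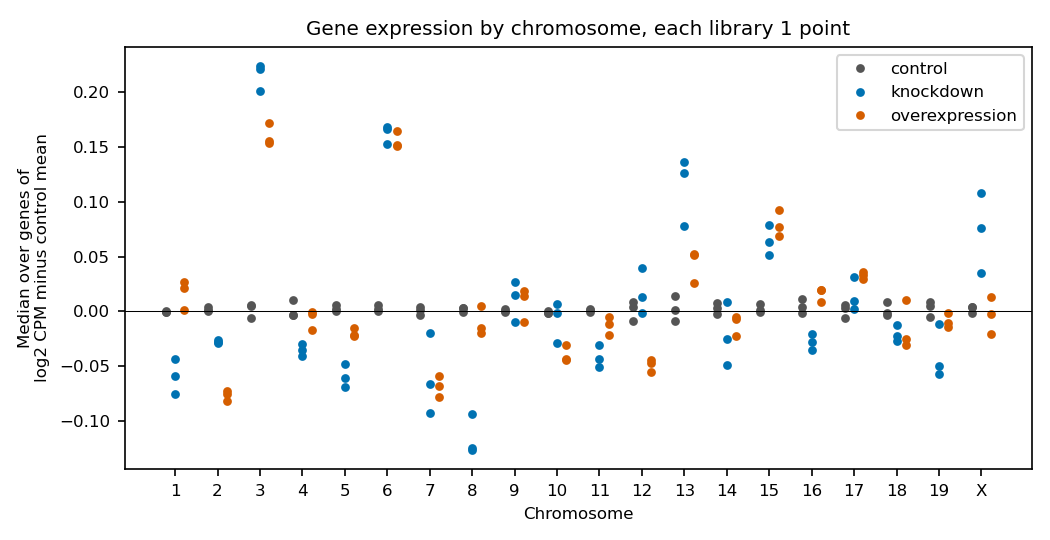
Median over the tested genes of each chromosome of log2 CPM minus the control mean, 1 point per library. The 6 perturbed libraries stand above the controls on chromosomes 3 and 6 by more than on any other chromosome, and the 2 perturbed lines separate from each other on chromosome 8.

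The shift ran along both chromosomes. When the genes of each were divided in order into 12 equal stretches, the median of every stretch was above 0, from 0.04 to 0.34 on chromosome 3 and from 0.08 to 0.21 on chromosome 6. A lean in 1 direction was not limited to them. On chromosome 7 the median of every stretch was below 0, from −0.19 to −0.01. On chromosome 15, 139 of 508 genes were called higher and 60 lower. The largest median of any stretch was −0.38, on chromosome 18. Chromosomes 3 and 6 hold 10.3% of the genes tested but 262 of the 1105 evenly shared rises (23.7%), and 38 of the 1004 evenly shared falls (3.78%). Outside them 3725 of 11724 genes (31.8%) were called, 1718 higher and 2007 lower, so that the balance turned from more rises to more falls. DNA copy number was not measured here, and the part of the chromosomal shift in any single gene was not tested.

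Gene composition moved with the change to a lesser degree. With genes in 5 equal groups by GC content, the median change went from 0.04 in the lowest group to −0.08 in the highest. In 5 groups by transcript length it went from −0.05 in the shortest to 0.03 in the longest. The GC trend was steeper in the knockdown line (0.09 to −0.11) than in the overexpression line (0.01 to −0.03). The length trend came from the knockdown line (−0.075 in the shortest group, 0.060 in the longest). With overexpression it was nearly flat (−0.015 and −0.003). These shifts are small beside the changes of the named genes and of a like size to the medians of the weaker lists, and their part in those lists was not tested.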

How the data were processed

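Total RNA of B16F10 cells was sequenced, per the labels' protocols, from non-directional libraries (paired ends, 150 bases each). The kit does not mark strand, so overlapping genes cannot be told apart. Per the file headers, each table gives, by transcript, an estimated count, a TPM value and an effective length in bases. The submitters' processing notes name Salmon 1.4.0, MultiQC 1.11, DESeq2 1.34.0 and the build mm39. For trimming and the annotation release, the sources used here give nothing.

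Of 140789 transcripts 137161 (97.42%) matched GENCODE M21 (GRCm38, used for names, chromosomes and gene order), and the unmatched ones held 0.554% to 0.654% of counts. The authors' deposited estimated counts were summed for 51717 genes and rounded. edgeR 4.0.16 (R 4.3.3) fitted the 9 libraries together, line being the sole factor, after filterByExpr and TMM normalisation (scaling of library sizes). Calls needed an adjusted p under 0.05 (Benjamini-Hochberg, all tested genes). Each SE was computed as the change divided by the root of F. Levels in CPM use TMM library sizes, and the deposited TPM served only for melanocyte markers. Knockdown and overexpression were contrasted with the same 3 controls, and intervals cover 95%. The steps were tested on simulated data. Chi-square per degree of freedom between libraries of a line was 4.79 to 10.64, above sampling noise.

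Genes were named by rule among called genes reaching 5 CPM in a line. They were the 8 largest rises and falls with no called difference between the lines and 4 each with one (by the smaller of the lines' changes). Further ones were 3 each where the 6 perturbed libraries were not all beyond the controls, and Sirpa. Up to 4 members of each of 26 pathway lists with the lowest adjusted p were also named. Predicted genes, clones and pseudogenes were left out of the largest rises and falls. Genes said to be given by inspection, members counted as exceptions and other members listed were named after their values were seen. Some genes that the rule names are not reported here. The contrast, the lists and the tests were chosen with earlier results of these data known. Alternatives were other size factors, filters, DESeq2 1.42.0, limma 3.58.1, a replicate block, the 6 perturbed libraries as 1 group, a transcript length offset, a minimum fold of 1.2, leaving out each library, and, chosen after seeing the data, leaving out chromosomes 3 and 6.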

Additional observations from a re-analysis of the deposited data

Results flagged for a closer look

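Among the named genes, 4 had all 3 knockdown libraries on 1 side of the controls and all 3 overexpression libraries on the other, with a called difference between the lines. The difference (overexpression minus knockdown, log2) was 2.97 for Sirpa, the targeted gene. For Col1a1 it was 3.76, around a mean change of −1.62. For Trpm1 it was 3.06, around a mean change of −0.85. For Igf2r, the receptor that takes up insulin-like growth factor 2, it was −0.67, around a mean change of 0.18. All 4 means were called, none with both lines on the same side of control, and all 4 calls were lost with the 6 perturbed libraries as 1 group (adjusted p = 0.409 for Igf2r).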

How the results depend on the processing

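The count of 4305 called genes was 4288 to 4510 with other size factors, filters or tests and 3309 to 4367 when 1 library was left out, lowest without a control. It fell to 2429 with the 6 perturbed libraries as 1 group, to 2404 with a transcript length offset and to 1130 with a minimum fold of 1.2. The count between overexpression and knockdown (2887) was 2241 to 2867 without 1 library, 1423 with the length offset and 719 with the minimum fold. Called genes with all 6 perturbed libraries beyond all controls (2848) were 2751 to 3030, 1876 and 1019 in the same settings. Genes whose interval of the difference lay within the mean change (1882) were 1610 to 1796 without 1 library and 1200 with the length offset. Outside chromosomes 3 and 6 the called genes numbered 3725. Replicate numbers did not pair the libraries: deviations of libraries with the same number correlated at −0.09 to 0.13. With the replicate block 4102 genes were called, 2712 between the lines. No named gene changed direction in any of the 18 alternatives, and 78 of 123 kept their call in all of them. Of the other 45, 34 lost it with the minimum fold, 14 with the libraries as 1 group and 11 with the length offset. The medians of the 26 pathway lists also depended on the setting. With the length offset 9 were marked as moved, and 7 without chromosomes 3 and 6. Without control replicate 1 it was 6, and without knockdown replicate 1 it was 5. With DESeq2 all 26 stayed. Depth limits genes under about 1 CPM, where a few counts set the fold.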
